A study of Mus musculus with 15 samples.

Results

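The effect of removing 1 kidney was examined in mice on a high-fat diet by setting the kidney RNA of mice labelled HFD-UNX against that of mice labelled HFD-sham. The comparison used 7 of the 15 arrays of the series, 4 HFD-UNX and 3 HFD-sham, chosen by their titles, and the other 8 arrays came from mice on a control chow diet labelled LFD. HFD-UNX mice had the left kidney removed (uninephrectomy), so the RNA came from the remnant kidney, whereas HFD-sham mice underwent a sham operation and kept both. All mice were male C57/BJ, were operated on at 6 weeks of age and were killed 20 weeks later, and both high-fat groups ate the same kind of diet over that time. The labels state 6 mice per group and give each array a mouse number, so each array stands for 1 mouse. The part of the kidney taken and the side taken from sham mice are not given in the sources used here.

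After loss of a kidney, the remaining kidney filters and reabsorbs more, and its tubules enlarge. High-fat feeding supplies the tubules with more fatty acid, their main fuel, and fatty acids can activate PPAR-alpha, a nuclear receptor that switches on genes of fat oxidation. AIM2, a sensor of DNA in the cytosol, starts an inflammasome that releases interleukin-1 beta, and clock genes set daily rhythms of salt transport in the nephron.

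RNA, 100 ng per mouse, was labelled with 1 dye and hybridised to an Agilent mouse array, and 16055 genes were detected well above background on 3 or more arrays. Levels are normalised log2 signals, in which 0 is the 75th percentile of an array's probes, and a difference is the HFD-UNX mean minus the HFD-sham mean on that scale. On the high-fat arrays 65.7% to 73.4% of spots were well above background. Kidney markers were well above background on every high-fat array: 6 of 6 podocyte, 7 of 7 proximal tubule, 3 of 3 thick ascending limb, 3 of 3 distal convoluted tubule and 4 of 4 principal cell genes. In whole tissue, fewer cells of a type and less RNA per cell cannot be told apart. The arrays lay on 2 slides, each with both groups: slide 1 held HFD-UNX replicates 1 and 2 and HFD-sham replicate 1, and slide 2 held the other 4 arrays.

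No gene passed the test. With limma on all 15 arrays, 0 of 16055 genes (0%) reached a Benjamini-Hochberg adjusted p under 0.05, the lowest being 0.0804 for Aim2 and the next 0.266. At an unadjusted p under 0.05, 503 genes (3.13%) were higher and 244 genes (1.52%) were lower in HFD-UNX. In 276 genes (1.72%) every HFD-UNX array lay above every HFD-sham array, and in 194 genes (1.21%) every one lay below. Without HFD-sham replicate 1, 1217 genes were higher and 864 lower at an unadjusted p under 0.05. That array is the only sham array on slide 1, so without it group and slide cannot be fully told apart. Without HFD-sham replicate 3, 332 genes were higher, and 0 passed in either case. Over all genes 8787 of 16055 lay higher in HFD-UNX, and the median difference was 0.02. This excess turned with the scaling: the median was -0.02 with quantile normalization and -0.01 with cyclic loess, and the counts at an unadjusted p under 0.05 were then 338 higher and 385 lower, and 373 higher and 365 lower. On simulated arrays with these group sizes, a single spread per gene and no slide effect, the same fit recovered 47% of 2-fold and 13% of 1.5-fold changes. Smaller changes were thus mostly not detectable with this number of arrays. Array weights, lower where an array departs more from its group, ran from 0.18 to 1.71 on high-fat arrays. On low-fat arrays they ran from 0.93 to 3.45, so recovery may be lower for the high-fat comparison. The genes below are therefore given as values, and an unadjusted p marks an order among them, not a call. Groups that do not overlap are likewise a description, since so few arrays also separate by chance.

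The 2 slides differed more from each other than the 2 groups did. Between slides, 4984 genes (31.0%) passed at an adjusted p under 0.05 in limma. Within slide 2 (2 HFD-UNX against 2 HFD-sham arrays), 438 genes passed as higher and 109 as lower in HFD-UNX. That fit took its spread from the low-fat arrays as well. Array weights were 0.24 for HFD-sham replicate 3, 0.18 and 0.24 for HFD-UNX replicates 3 and 4, and 1.59 for HFD-sham replicate 2. On low-fat arrays they ran from 0.93 to 3.45. The pooled spread may thus be too small for slide 2, and its counts too high. Within slide 1 (2 arrays against 1, the lone sham array being assumed to vary like the other groups), 3 genes passed. The difference had the same sign on both slides for 40.7% of genes, and the slide 1 and slide 2 differences correlated at r = -0.21 across genes, which are not independent replicates. A fit with slide as a block let 0 genes pass. A fit that blocks on replicate number, under which arrays of the same number are compared, let 24 genes (0.149%) pass, 23 of them higher. Of these 24, 20 also passed between slides, and 1 had groups that did not overlap, Aim2 (adjusted p = 0.0478). Itga2b, an integrin subunit of platelets, had the lowest adjusted p of that fit (0.0240, difference 0.92). Its difference was 0.56 without the block, 0.81 within slide 1 and 0.07 within slide 2.

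**Figure D1:**
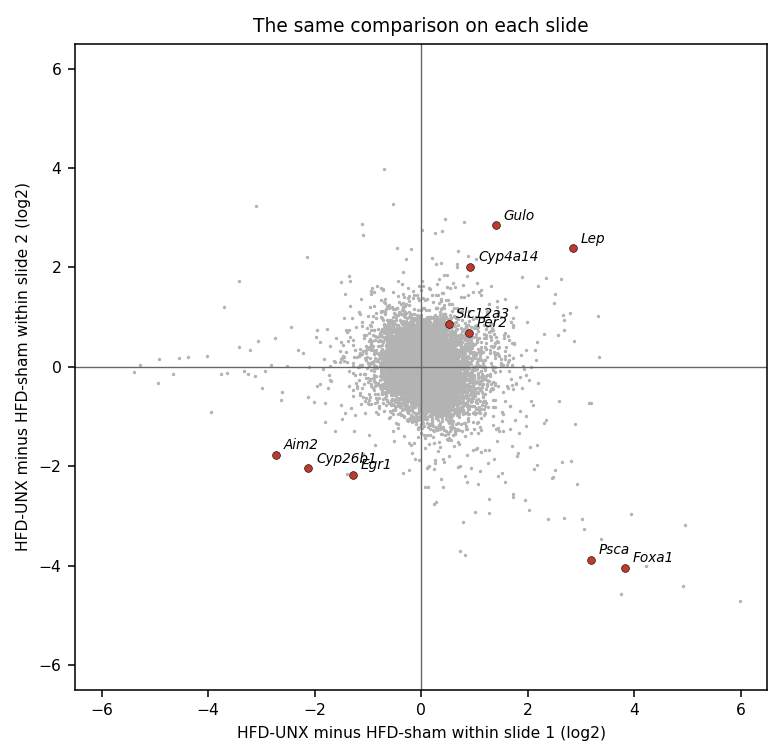
Each point is a gene, with the log2 difference of HFD-UNX minus HFD-sham within slide 1 on the horizontal axis and within slide 2 on the vertical axis, and 10 genes are named. The cloud of all genes leans towards opposite signs (r = -0.21), while Aim2 and Cyp26b1 lie low and Gulo, Lep and Cyp4a14 lie high on both slides.

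Among genes lower in HFD-UNX, Aim2 came first by p. It lay at -8.61, -8.34, -8.10 and -7.91 on HFD-UNX replicates 1 to 4, against -5.76, -6.37 and -6.09 on HFD-sham replicates 1 to 3. The groups did not overlap, and the probe was well above background on 3 of 3 HFD-sham arrays but on 0 of 4 HFD-UNX arrays. The measured difference was -2.17 ± 0.30 (SE), and against the floor of detection Aim2 was at least 1.25-fold lower (limma, adjusted p = 0.0804). It held within slide 1 (-2.72) and within slide 2 (-1.77), and passed with cyclic loess normalization (adjusted p = 0.00346). With normexp background correction, which compresses dim probes, the Aim2 difference was 0.08 and its direction was lost.

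Cyp26b1, an enzyme that clears retinoic acid, was well above background on all 7 arrays. It lay at -1.22, -0.67, -1.06 and -2.23 in HFD-UNX kidneys, against 1.17, 0.42 and 0.38 in HFD-sham kidneys. Every remnant kidney was lower, 3.87-fold on average (difference -1.95 ± 0.54 SE, adjusted p = 0.923 by limma), with -2.12 within slide 1 and -2.04 within slide 2. Car3, a carbonic anhydrase abundant in fat and muscle, lay at 0.86, 1.13 and 1.14 on HFD-UNX replicates 1, 3 and 4, against 1.95, 1.73 and 1.75 in HFD-sham kidneys. Its spot on HFD-UNX replicate 2 carried an outlier mark and was left out of the fit, which gave -0.77 ± 0.15 (SE, adjusted p = 0.670). Il5ra, a subunit of the interleukin-5 receptor, differed by -0.84, and its groups did not overlap.

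The other leading lower genes differed by less. Dtx4, a Notch regulator, differed by -0.68, Rflna by -0.83, Fign, a microtubule-severing enzyme, by -0.62, and Nap1l3 by -0.53. Cenpj and Cep131, both parts of the centriole and its satellites, differed by -0.49 and -0.47, and Poglut3, an O-glucosyltransferase, by -0.47. In each of these 7 genes all 4 HFD-UNX arrays lay below all 3 HFD-sham arrays. Slc9a4, a sodium/proton exchanger, was well above background on 0 of 4 HFD-UNX and 2 of 3 HFD-sham arrays and was at least 1.32-fold lower. Usp13, a deubiquitinase, was above background on 0 of 4 and 3 of 3 arrays and was at least 1.65-fold lower. With normexp both Slc9a4 (0.23) and Usp13 (0.02) lost this direction.

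Gulo showed the highest difference among genes measured on all 7 arrays with groups that did not overlap. The gene encodes the last enzyme of vitamin C synthesis, active in mice and known mainly from liver. It lay at -1.40, -0.75, 0.00 and -1.09 in HFD-UNX kidneys, against -2.48, -3.65 and -3.14 in HFD-sham kidneys. All 4 remnant kidneys were higher, 4.84-fold on average (difference 2.28 ± 0.49 SE, adjusted p = 0.670 by limma), with 1.40 within slide 1 and 2.85 within slide 2.

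Several leading higher genes were dim. Foxe1, a forkhead factor of thyroid development, lay at -5.68, -5.90, -5.24 and -5.65 in HFD-UNX kidneys, against -6.84, -6.87 and -7.39 in HFD-sham kidneys. It was well above background on 3 of 4 HFD-UNX and 0 of 3 HFD-sham arrays and was at least 2.09-fold higher (adjusted p = 0.266 by limma). Kcnk9, a background potassium channel, was above background on 4 of 4 and 0 of 3 arrays and was at least 1.61-fold higher. Foxe3, a lens factor, differed by 0.91, the non-coding RNA Platr26 by 1.22, and Lcn10, a lipocalin, by 0.69, each above background on 2 of 3 HFD-sham arrays. The lowest signal that counted as well above background lay between -6.51 and -6.18 on HFD-UNX arrays, against -6.07, -6.80 and -7.19 on HFD-sham replicates 1 to 3, and its part in these differences was not tested.

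Leading higher genes well above background on all 7 arrays included Nkain1, which binds the sodium pump's beta subunit. It lay between 0.60 and 0.68 in HFD-UNX kidneys, against 0.25, 0.05 and -0.68 in HFD-sham kidneys. The difference was 0.78 ± 0.17 (SE), and the groups did not overlap. Slc49a4, a transporter of lysosomes, differed by 1.46 and Emilin3, a matrix glycoprotein, by 1.35, with HFD-sham replicate 3 lowest in both. Zim3, a zinc-finger protein, differed by 0.51 with groups that did not overlap, beside 1.03 on the low-fat diet.

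Of the 12 lowest p-values among higher genes, 4 belonged to odorant receptors, a family of G protein-coupled receptors of the nose with some members known in kidney. Olfr681 differed by 1.25, Olfr406 by 0.85, Olfr612 by 1.47 and Olfr738 by 0.84. Across the whole family of olfactory and vomeronasal receptor genes, grouped after these values were seen, 217 of 259 measured members lay higher in HFD-UNX, with a median of 0.30 beside 0.02 over all genes. At an unadjusted p under 0.05, 43 were higher (3.13% of all genes) and 0 lower (1.52% of all genes). The median ran from 0.19 to 0.49 with 1 array left out, and was 0.35 within slide 1 and 0.29 within slide 2. Such genes are dim, and 118 of the 259 were well above background on all 7 arrays. The 75th-percentile signal was 669, 1250 and 3275 on HFD-sham replicates 1 to 3, against 1017 to 1446 on HFD-UNX arrays. The part of this uneven brightness in the differences of dim genes was not tested. The family's median was 0.19 with quantile normalization and with cyclic loess, and 0.40 with normexp.

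**Figure D2:**
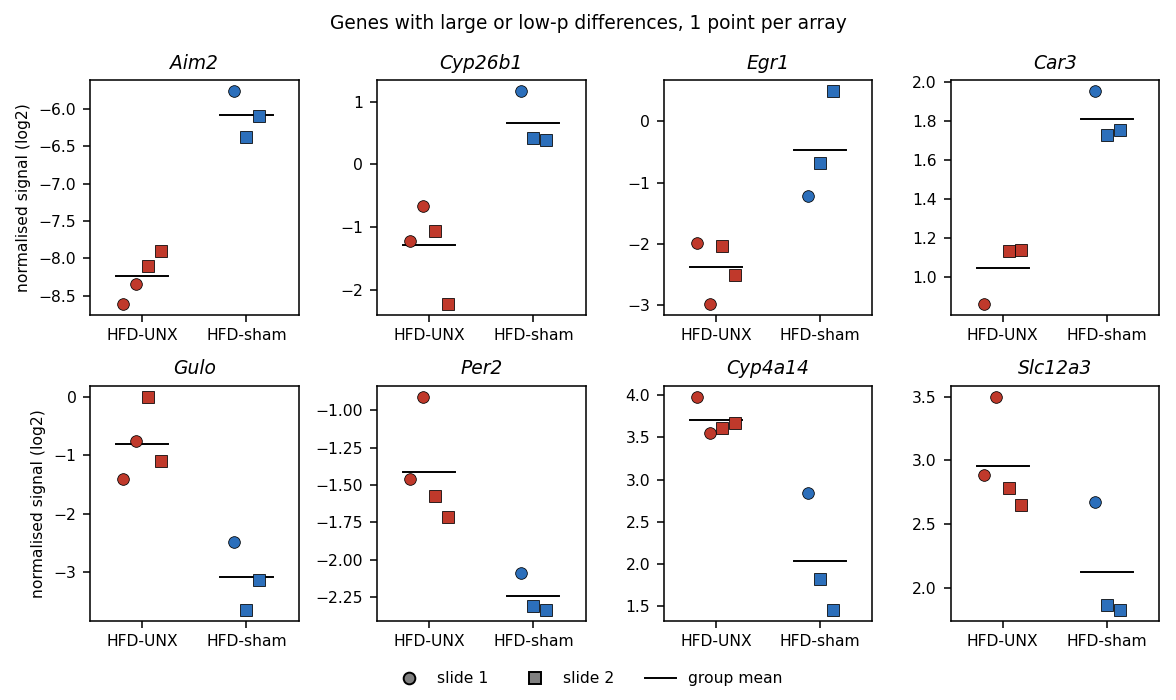
Normalised log2 signal (vertical axis, 0 is an array's 75th percentile) of 8 genes on each high-fat array, HFD-UNX left of HFD-sham, with circles for slide 1, squares for slide 2 and a line at each group mean. Aim2, Cyp26b1, Egr1 and Car3 lie lower and Gulo, Per2 and Cyp4a14 higher in every HFD-UNX array measured, while 1 HFD-sham array overlaps the HFD-UNX arrays in Slc12a3.

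Genes switched on by PPAR-alpha in fat oxidation lay higher in HFD-UNX kidneys almost throughout. Of 22 measured targets outside the beta-oxidation pathway, 21 were higher, 4 of them at an unadjusted p under 0.05 (3.13% of all genes) and 0 lower. Their median was 0.37, beside 0.02 over all genes. Cyp4a14, a fatty acid omega-hydroxylase and a classic PPAR-alpha target in rodents, lay at 3.98, 3.55, 3.62 and 3.67 in HFD-UNX kidneys, against 2.84, 1.82 and 1.46 in HFD-sham kidneys. The groups did not overlap, and Cyp4a14 was 3.17-fold higher on average (difference 1.67 ± 0.69 SE, adjusted p = 0.999 by limma).

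Among the other targets, Acot3, a peroxisomal thioesterase, differed by 0.67 and Acaa1a, a peroxisomal thiolase, by 0.26. Angptl4, an inhibitor of lipoprotein lipase, differed by 0.55 with groups that did not overlap, and Plin2, a lipid droplet coat protein, by 0.43. Pdk4, which restrains pyruvate oxidation, was the single target not higher (-0.04).

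Ppara itself, the receptor gene, lay at 3.66, 3.80, 4.04 and 3.96 in HFD-UNX kidneys, against 3.57, 3.52 and 3.44 in HFD-sham kidneys. Every remnant kidney was higher, by a small margin (0.36 ± 0.12 SE, adjusted p = 0.999 by limma). Mitochondrial beta-oxidation genes, which carry fatty acids into mitochondria and break them down, lay higher in 17 of 18 cases with a median of 0.21. At an unadjusted p under 0.05, 2 were higher (3.13% of all genes). These were Slc25a20, the carnitine-acylcarnitine carrier (0.65), and Cpt1a, the gate of fatty acid entry (0.34). Cpt2 differed by 0.41 and Decr1, an auxiliary enzyme for unsaturated fatty acids, by 0.34. Of the 18 beta-oxidation genes, 11 were higher within slide 1, 13 within slide 2 and 7 on both slides. The beta-oxidation median was 0.04 within slide 1 and 0.25 within slide 2, and 0.11 with quantile normalization. For the PPAR-alpha targets it was 0.21 and 0.47 within the slides and 0.25 without HFD-sham replicate 2. It was 0.62 without HFD-sham replicate 1, the only sham array on slide 1. Of these 22 targets, 15 were higher within slide 1, 19 within slide 2 and 12 on both slides.

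**Figure D3:**
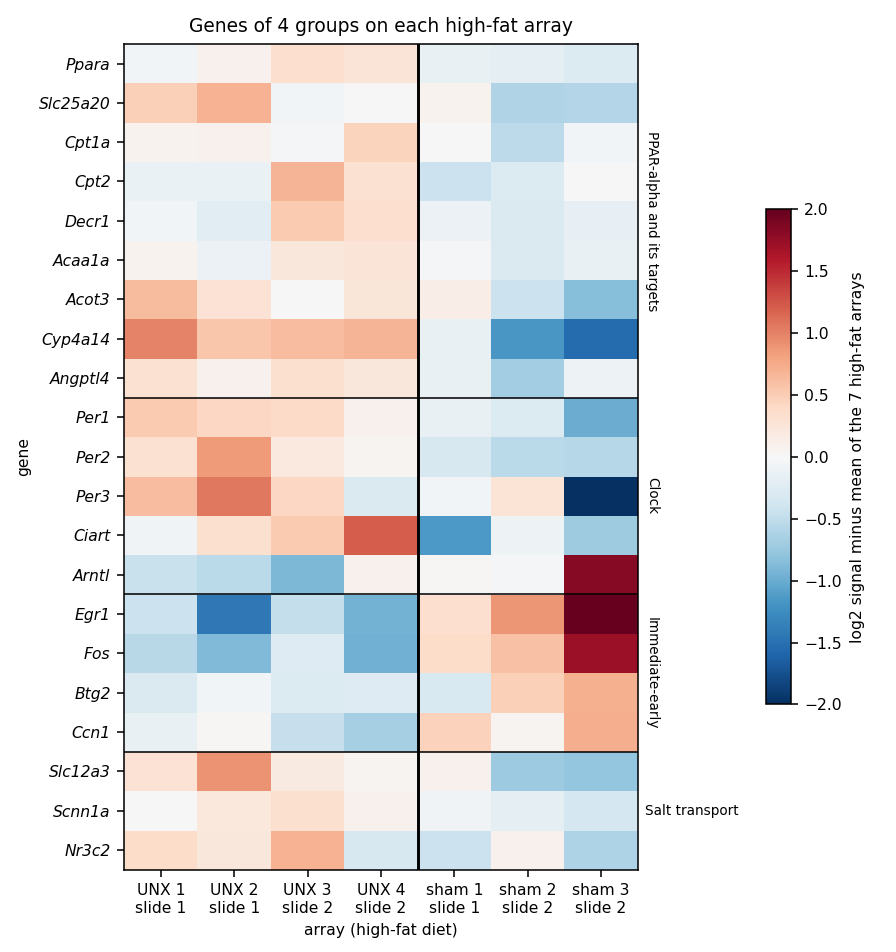
Normalised log2 signal of 21 genes on each high-fat array, HFD-UNX columns left of HFD-sham columns, as the difference from the gene's mean over the 7 arrays (colour scale from -2 to 2). PPAR-alpha and clock genes of the period family are higher and immediate-early genes lower on most HFD-UNX arrays.

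Among clock genes, none of which passed the test, the period genes, which repress their own activators in the evening, lay higher on average in HFD-UNX kidneys. Arntl (Bmal1), an activator that peaks in antiphase, lay lower on average with groups that overlapped. Of 19 measured clock genes 12 were higher, beside 54.7% of all genes. At an unadjusted p under 0.05, 3 were higher (3.13% of all genes) and 1 was lower (1.52% of all genes). Because the period family carries this pattern, stretches of promoter holding the clock elements are shown for Per1 and Per3 and for Ciart, a repressor in the same loop, and Per2 was not searched. They come from RefSeq (GRCm38.p6), run 5′ to 3′ on the gene's strand, and capitals mark the E-box CACGTG, bound by the ARNTL:CLOCK dimer, or the D-box TTATGTAA, bound by DBP and its relatives.
Ciart, chr3:95882259-95882358, minus strand: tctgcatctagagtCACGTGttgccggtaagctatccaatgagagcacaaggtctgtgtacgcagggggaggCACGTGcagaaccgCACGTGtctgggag
Per1, chr11:69098734-69098833, plus strand: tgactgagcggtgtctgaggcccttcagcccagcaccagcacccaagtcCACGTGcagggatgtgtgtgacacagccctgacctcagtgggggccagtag
Per3, chr4:151044806-151044885, minus strand: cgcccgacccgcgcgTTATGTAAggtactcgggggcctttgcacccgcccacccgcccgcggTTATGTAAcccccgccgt
On both strands of windows of 300 bases around gene starts, the E-box letters were found in 7.15% of 32851 windows and the D-box letters in 0.938%, or in a window of 8.09% and 1.11% of 27025 genes. Of the 17 clock genes with a window, 5 held an E-box (Bhlhe41, Ciart, Cry1, Per1 and Tef) and 1 a D-box (Per3). A match is a description of the letters, and binding was not measured.

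Per1, whose stretch above has 1 E-box, lay at 2.78, 2.67, 2.64 and 2.34 in HFD-UNX kidneys, against 2.11, 1.97 and 1.26 in HFD-sham kidneys (difference 0.83 ± 0.27 SE). Per2 lay at -1.46, -0.91, -1.57 and -1.71 in HFD-UNX kidneys, against -2.08, -2.31 and -2.33 in HFD-sham kidneys (0.83 ± 0.24 SE). In both genes all remnant kidneys were above all sham kidneys, on each slide, and the adjusted p was 0.999 in limma. Ciart, with 3 E-boxes, differed by 1.14 at an unadjusted p of 0.183 and its groups did not overlap (it is named here after its values were seen).

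Per3 and Arntl rested in part on 1 mouse. Per3 lay at -2.67, -2.22, -2.86 and -3.57 in HFD-UNX kidneys, against -3.33, -3.01 and -5.28 in HFD-sham kidneys, and its difference of 1.05 was 0.34 without HFD-sham replicate 3. Arntl lay at -3.12, -3.22, -3.57 and -2.60 in HFD-UNX kidneys, against -2.65, -2.71 and -0.85 in HFD-sham kidneys, and its difference of -1.06 was -0.45 without that array. Dbp, an output gene of the clock, differed by 0.36, and by -0.04 without it. The clock list's median of 0.17 became 0.03 without HFD-sham replicate 3. The hour at which the kidneys were taken is not given in the sources used here.

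Immediate-early genes, which cells transcribe within minutes of a stimulus, lay lower in HFD-UNX kidneys. Of 23 measured, 7 were higher, 3 were lower at an unadjusted p under 0.05 (1.52% of all genes), and the median was -0.32. Egr1, a zinc-finger factor, lay at -1.996, -2.99, -2.03 and -2.51 in HFD-UNX kidneys, against -1.22, -0.68 and 0.50 in HFD-sham kidneys (difference -1.92 ± 0.61 SE). Fos, a subunit of AP-1, lay at -5.79, -6.11, -5.48 and -6.19 in HFD-UNX kidneys, against -4.86, -4.64 and -3.52 in HFD-sham kidneys (-1.55 ± 0.72 SE). The HFD-UNX levels of Fos were near the lowest signal well above background on those arrays (-6.51 to -6.18). With normexp the difference was -0.26 for Fos and -1.64 for Egr1.

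In both genes the groups did not overlap, and HFD-sham replicate 3 was the highest. Ccn1, a matricellular protein, differed by -0.72 with groups that did not overlap, and Btg2, an antiproliferative factor, by -0.51 with groups that overlapped. The list's median was 0.07 within slide 1 and -0.56 within slide 2, so its direction held on 1 slide. With normexp it was -0.11, and it was -0.52 without HFD-sham replicate 1, the only sham array on slide 1. Outside the list, Socs3, a brake on cytokine signalling, differed by -0.65 with groups that did not overlap.

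Transport genes of the distal nephron lay mostly higher in HFD-UNX kidneys. Of 14 measured genes of the distal convoluted and connecting tubule 12 were higher, with a median of 0.25. At an unadjusted p under 0.05, 1 was higher (3.13% of all genes). That gene was Slc12a3, the thiazide-sensitive sodium chloride cotransporter, at 2.88, 3.50, 2.78 and 2.65 in HFD-UNX kidneys, against 2.68, 1.86 and 1.83 in HFD-sham kidneys (0.83 ± 0.25 SE, adjusted p = 0.999 by limma). Sham replicate 1 overlapped the lowest remnant kidney. The summed level of the markers Slc12a3, Calb1 and Trpm6 ran from 3.07 to 3.64 in HFD-UNX kidneys, against 2.20 to 2.89 in HFD-sham kidneys, without overlap. Slc12a3 made up most of this sum on every array, so the sum largely repeats its values. Pvalb, a calcium-binding protein of this segment, differed by 0.44, and Trpv5, its calcium channel, also by 0.44. The segment's median was 0.00 within slide 1 and 0.47 within slide 2, and ran from 0.14 to 0.41 with 1 array left out.

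In principal cells of the collecting duct, Scnn1a, the alpha subunit of the sodium channel ENaC, lay at 2.66, 2.87, 2.98 and 2.74 in HFD-UNX kidneys, against 2.59, 2.46 and 2.30 in HFD-sham kidneys. The groups did not overlap and the difference was 0.36 ± 0.13 (SE). Nr3c2, the mineralocorticoid receptor, differed by 0.56, and Sgk1, a kinase it induces, by 0.34. Aqp2, the vasopressin-regulated water channel, differed by 0.50 with groups that overlapped, and by -0.13 without HFD-sham replicate 3. Of the 13 measured principal cell genes 9 were higher, with a median of 0.20 that was -0.05 without HFD-UNX replicate 3.

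The remaining segments showed smaller differences. In the thick ascending limb 8 of 11 genes were higher with a median of 0.19, which was 0.06 without HFD-UNX replicate 2, 0.09 without HFD-UNX replicate 3 and 0.04 with array weights. Umod, its most abundant secreted protein, differed by 0.11, and by -0.12 with quantile normalization, while Slc12a1, its salt cotransporter, differed by -0.13. In the proximal tubule, the bulk of the cortex, 15 of 24 genes were higher with a median of 0.03 and 0 had an unadjusted p under 0.05. Slc34a1, the phosphate cotransporter, differed by -0.04, Slc5a2, the glucose cotransporter, by 0.04, and Lrp2, the endocytic receptor megalin, by 0.21. Car14, a membrane carbonic anhydrase, differed by 0.49. Of 18 podocyte genes 4 were higher and the median was -0.16. Cd2ap, an adaptor at the slit diaphragm, was the single podocyte gene whose groups did not overlap (-0.20, beside 1.21% of all genes in that direction). Nphs1, which encodes nephrin, differed by 0.01. Kl, the co-receptor of FGF23 made by the distal tubule, differed by -0.03.

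Growth factors and their receptors lay mostly lower, with 7 of 26 higher and a median of -0.17 (0.03 within slide 1 and -0.29 within slide 2). Pdgfa and Pdgfb, ligands that drive mesangial cells and pericytes, differed by -0.36 and -0.31. Pdgfb lay at 1.36, 1.06, 1.16 and 1.31 in HFD-UNX kidneys, against 1.47, 1.54 and 1.58 in HFD-sham kidneys, without overlap. Pdgfrb, their receptor on pericytes, differed by -0.48 and Heyl, a Notch target of mural cells, by -0.42, both without overlap. Hgf, a tubular growth factor, differed by -0.95, but by 0.03 with normexp. Bmp2 differed by -0.72. Igf1 (-0.01), Egf (0.03) and Vegfa (-0.06), often studied in compensatory growth, differed by less than their standard errors.

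Cell cycle genes gave a median of 0.02, with 15 of 27 higher. Mki67, a marker of dividing cells, differed by 0.02 and Ccnd1, the G1 cyclin, by 0.27, both with groups that overlapped. Tyms, which makes thymidylate for DNA synthesis, differed by 0.55, and Mcm7, a subunit of the replicative helicase, by -0.25 with groups that did not overlap.

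Matrix genes lay lower in 25 of 34 cases, with a median of -0.12 and 0 at an unadjusted p under 0.05. That median was -0.25 within slide 1 and -0.16 within slide 2. It was 0.01 without HFD-sham replicate 1, the only sham array on slide 1, where group and slide cannot be fully told apart. It was -0.24 without HFD-sham replicate 3 and -0.01 with array weights. Col1a1 differed by -0.19, Col3a1 by -0.12 and Fn1 by -0.14. Hspg2, the basement membrane proteoglycan perlecan (-0.30), and Timp3, an inhibitor of metalloproteinases (-0.17), had groups that did not overlap. Tgfb1 differed by 0.00 with a standard error of 0.55.

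Tubular injury genes gave a median of 0.04, with 13 of 24 higher, and of -0.16 without HFD-sham replicate 3. Havcr1 (KIM-1), the injury marker of the proximal tubule, differed by -0.13, Lcn2 (NGAL) by 0.23, Spp1 (osteopontin) by 0.12 and Vcam1 by -0.06. The standard errors of Havcr1 (0.66) and Lcn2 (0.56) were larger than those differences. Tff3, a trefoil peptide, was well above background on 1 of 4 HFD-UNX and 0 of 3 HFD-sham arrays.

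Immune genes showed no common direction. Of 26 inflammasome and DNA-sensing genes 14 were higher with a median of 0.00, and Aim2 was the one that stood lowest. Il1r1, the interleukin-1 receptor, differed by -0.39, Nlrp1b, another inflammasome sensor, by -0.61 (0.12 with normexp), and Txnip, an NLRP3 partner, by 0.23. Of 24 macrophage and antigen presentation genes 12 were higher with a median of 0.01. Ccl2, which draws in monocytes, differed by -0.50 ± 0.41 (SE). Of 20 B and T lymphocyte genes 6 were higher with a median of -0.19 (0.06 with normexp), although Cd3e, a chain of the T cell receptor complex, differed by 0.67.

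Interferon-stimulated genes lay higher in 22 of 30 cases with a median of 0.22, and HFD-UNX replicate 1 led them. On that array Ifi27 lay at 4.98, against 3.56 to 3.83 on the other HFD-UNX arrays and 3.33 to 3.83 on HFD-sham arrays. Oas1a, an antiviral synthetase, lay at 1.91 there and Oasl1 at 0.92. Without HFD-UNX replicate 1 the list's median was -0.12, so its direction rested on 1 mouse. Irf1, a factor induced by interferon gamma, went the other way, lower in every remnant kidney (-0.45 ± 0.15 SE).

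Energy metabolism genes differed by slide. Of 31 respiratory chain and ATP synthase genes 29 lay higher in HFD-UNX, with a median of 0.14, but the median was -0.17 within slide 1 and 0.39 within slide 2. Ribosomal protein genes behaved likewise, with medians of 0.06 over all arrays, -0.42 within slide 1 and 0.38 within slide 2. With quantile normalization the respiratory chain median was 0.01 and the ribosomal one -0.05. Gluconeogenesis and glucose transport genes, a main task of the proximal tubule in fasting, lay higher in 14 of 15 cases with a median of 0.14, and had -0.16 and 0.36 within the slides. Among them Pck1, the rate-limiting enzyme, differed by 0.43 (0.27 within slide 1 and 0.44 within slide 2), and Slc2a5, the fructose transporter, by 0.44. Pdk1, a pyruvate dehydrogenase kinase, differed by 0.56 with groups that did not overlap and held on both slides (0.54 and 0.53).

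**Figure D4:**
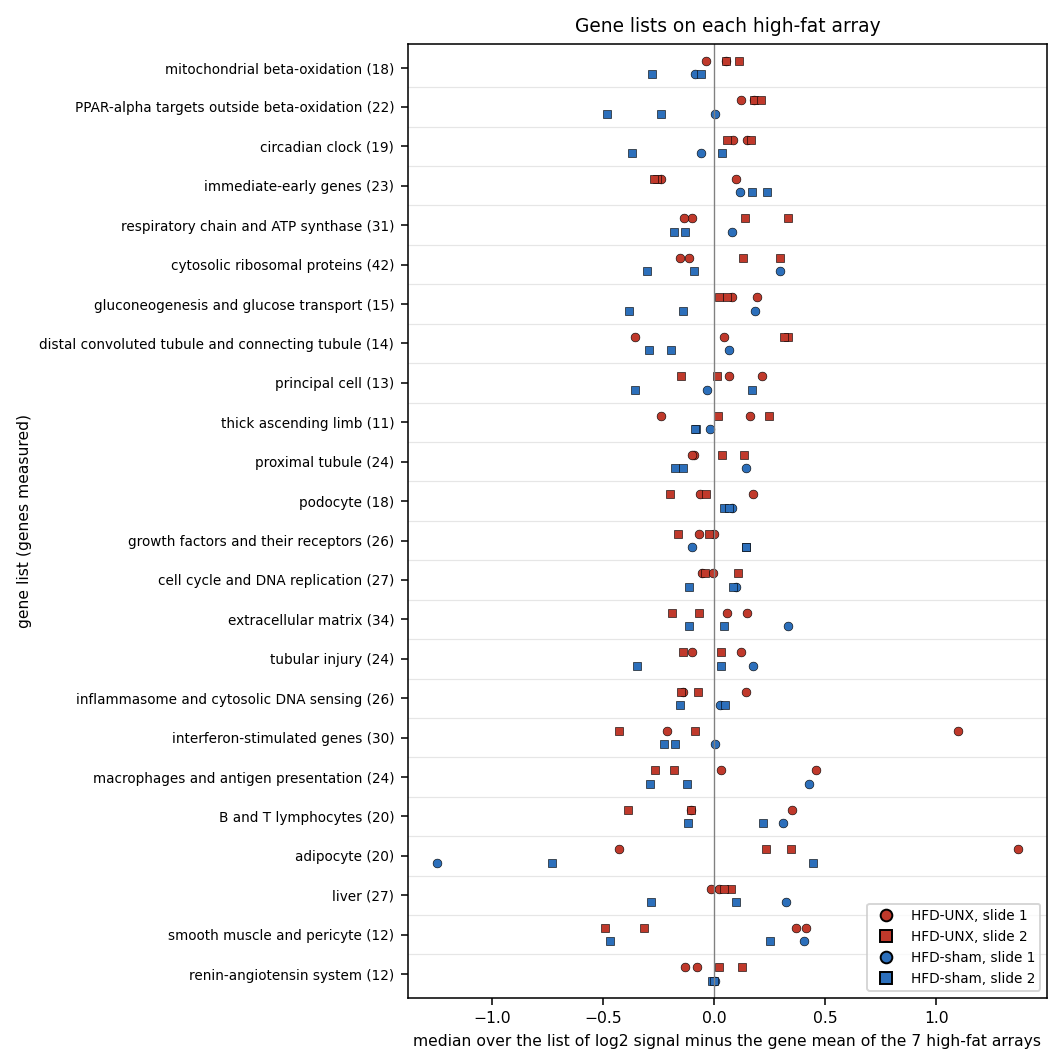
Median over the members of 24 gene lists on each high-fat array, each gene as the difference from the mean over the 7 arrays on the log2 scale, with HFD-UNX arrays in red above HFD-sham arrays in blue within each list. Circles are slide 1 and squares slide 2. The PPAR-alpha, beta-oxidation and clock lists lie higher and immediate-early genes lower on every HFD-UNX array, the other lists overlap, and interferon-stimulated genes stand out on HFD-UNX replicate 1 (1.10).

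Genes of neighbouring tissues varied widely between arrays. Of 20 adipocyte genes 18 lay higher in HFD-UNX with a median of 0.74, which was 0.39 without HFD-UNX replicate 2 and 1.35 without HFD-sham replicate 3. Lep, which encodes leptin, lay at -7.04, -2.98, -4.64 and -4.18 in HFD-UNX kidneys, against -7.86, -6.87 and -6.71 in HFD-sham kidneys. Its probe has several spots per array, whose mean is given, and at least 1 of them was well above background on 2 of the 3 HFD-sham arrays. Plin1 and Cidec, lipid droplet proteins of fat cells, differed by 1.81 and 1.88, Adipoq (adiponectin) by 1.53 and Slc36a2 by 1.39, all with groups that overlapped. All 6 defining fat-cell markers were higher, yet their summed level ran from 0.06 to 2.32 in HFD-UNX kidneys, against -0.92 to 2.50 in HFD-sham kidneys, the highest being a sham array. Car3, also a fat-cell gene, was lower, as described above. The part of this fat signal in the PPAR-alpha and lipid genes was not tested.

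Urothelium genes, which mark the renal pelvis, had a median of -0.52 but 3.02 within slide 1 and -3.06 within slide 2. Psca differed by 3.19 within slide 1 and by -3.88 within slide 2, and Foxa1 by 3.82 and -4.05. The markers Upk1a, Upk1b, Upk2, Upk3a and Krt5 summed to -2.06 to 1.34 in HFD-UNX kidneys, against -1.76 to 1.97 in HFD-sham kidneys. The order of the groups in this sum was opposite on the 2 slides. Of 27 liver-type genes 16 were higher with a median of 0.13, and of -0.13 without HFD-sham replicate 3. Hp, haptoglobin, differed by 1.77, Orm1 and Orm2, acute-phase proteins, by 1.59 and 1.95, and these overlapped between groups. Ttr, the carrier of thyroid hormone and retinol, lay at 4.31, 4.45, 4.33 and 4.70 in HFD-UNX kidneys, against 3.47, 3.78 and 4.07 in HFD-sham kidneys, without overlap (0.68 ± 0.24 SE).

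Renin-angiotensin genes gave a median of -0.08, with 4 of 12 higher. Ren1, renin, differed by -0.30, Agt, angiotensinogen, by 0.34 and Ace, the converting enzyme, by -0.07, each with groups that overlapped. Smooth muscle and pericyte genes gave a median of -0.06, which ran from -0.36 to 0.12 with 1 array left out. A further 27 lists had medians between -0.15 and 0.24, with at most 2 members at an unadjusted p under 0.05 in a direction. Over all genes, 3.13% were higher and 1.52% lower at that level.

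The operation was also carried out on the low-fat diet, with 4 LFD-UNX and 4 LFD-sham mice. There each group lay on a slide of its own, so surgery and slide cannot be told apart. A test of whether the effect of surgery differed between diets found 0 genes at an adjusted p under 0.05, and 219 at an unadjusted p under 0.05 (limma). The difference had the same sign on both diets for 60.9% of all genes and for 77.4% of the 747 genes at an unadjusted p under 0.05 on the high-fat diet. On the low-fat diet, 519 of 16055 genes had an unadjusted p under 0.05 (limma). Genes at that level on both diets numbered 67 higher, 41 lower and 4 opposite.

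Several genes described above differed alike on the low-fat diet. Per2 differed by 0.83 under high-fat and 0.81 under low-fat feeding, Car3 by -0.77 and -0.68, Ttr by 0.68 and 0.88, Gulo by 2.28 and 1.17, and Fos by -1.55 and -1.58. Pdgfrb (-0.48 and -0.71) and Heyl (-0.42 and -0.84) also lay lower on both. Aim2 differed by -2.17 under high-fat and -0.25 under low-fat feeding (interaction, unadjusted p = 0.000387, adjusted p = 1.00). Aim2 was not well above background on any HFD-UNX array, and its high-fat difference was 0.08 with normexp. The lowest signal well above background was -5.94 to -5.22 on low-fat arrays, higher than on high-fat arrays. Its 2 differences are thus limited by signal near background. Cyp4a14 differed by 1.67 and -0.13 and Angptl4 by 0.55 and -0.13, neither passing the interaction test. The PPAR-alpha target median was 0.37 under high-fat and 0.12 under low-fat feeding, that of adipocyte genes 0.74 and -0.36, and that of matrix genes -0.12 and -0.35.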

How the data were processed

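The deposited intensity values come from the authors' use of Agilent Feature Extraction, version 10.7 in the submitters' processing notes and 10.7.3.1 in the file headers, on array design 026655. They are background-subtracted, per the file headers, and not normalised between arrays. The authors' value table gives these intensities again, at 0.995 to 1.005 times the scanner signal (column medians 56.7 to 251), so it carries no further scaling or centring.

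Control spots and outlier-marked spots, 74 to 273 on each array, were dropped, log2 was taken, and each array's 75th percentile subtracted. Of 39429 probes, 27234 were named through RefSeq accessions (GRCm38.p6 names, while the array design names mm9), and 12195 were not. A probe was kept, and counted as measured on an array, by any of its spots being well above background (3 or more of 15 arrays), and the brightest probe stood for a gene. No spot was saturated, and 43 genes had a missing value. A gene below background throughout 1 group has a fold given as a bound, against a floor on each array, the lowest signal well above background or its own signal if that is higher. The number of arrays limits the precision.

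The test was limma 3.58.1 in R 4.3.3 (lmFit, then eBayes, with statmod 1.5.0 loaded) on all 15 arrays with a mean per group, two-sided, with Benjamini-Hochberg adjustment over 16055 genes. It was tested on simulated data. A list's level on an array is the median over its genes, and a summed marker level is log2 of the summed linear signals. Named genes were the 12 lowest p-values and the 8 largest non-overlapping differences per direction, up to 4 members of each list and a panel of 56, of which some are not reported here. The members, lists and panel were chosen with earlier results of these data known. Alternatives changed normalization, background correction, the value table, the dim-probe filter, the choice of probe, array weights, blocking by slide or replicate number, which arrays were fitted, and the threshold. The files hold no mean signal, so normexp (offset 50) used the deposited median intensity, a change from the plan.

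Whether replicate numbers pair the mice was checked by correlating same-numbered arrays' deviations from their group means, which gave 0.43, 0.12 and 0.33. All exceed 0.1, so the blocked fit is given. The pairs numbered 1 and 3 share a slide, and HFD-sham replicate 3 correlated more with HFD-UNX replicate 4 (0.42). HFD-UNX replicate 2 also correlated more with HFD-sham replicate 1 (0.23), on its slide, than with its own number (0.12). Pairing and slide thus cannot be told apart here. HFD-UNX replicate 4 has no partner and does not enter the blocked difference.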

Additional observations from a re-analysis of the deposited data

Results flagged for a closer look

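In 121 genes and 25 lists, each HFD-UNX array was compared with the other 3 by Dixon's test, and 6 had an array far from the rest. HFD-sham has 3 arrays and was not tested, and chance alone gives about 1 such case in 20 groups. HFD-UNX replicate 3 was low in Il5ra (-3.54) and in Il1r1 (-2.69). HFD-UNX replicate 1 was low in Trpv5 (-3.58) and in Slc2a5 (4.07), and stood high in the immediate-early list (0.10). HFD-UNX replicate 2 was high in Btg2 (-1.24).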

How the results depend on the processing

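The count of genes passing stayed at 0 with the slide as a block, quantile normalization, normexp, the value table, both dim-probe filters, probe means, array weights, the 7 high-fat arrays alone and each array left out. It was 1 with cyclic loess (Aim2), 1 at an adjusted p under 0.1, 24 with the replicate block and 547 within slide 2. The last count used a spread pooled with the low-fat arrays and may be too high. Counts at an unadjusted p under 0.05, given as higher and then lower, were 857 and 436 with the slide block, 1250 and 812 with the replicate block, 1520 and 1331 with array weights, 114 and 74 with normexp, and 248 and 116 on the 7 arrays alone. They were 2330 and 992 within slide 2, while 657 were lower within slide 1 and 385 were lower with quantile normalization (338 higher). Genes without overlap were 118 higher and 102 lower with normexp. Leaving out 1 array gave 332 to 1217 higher and 230 to 864 lower genes, and 406 to 1364 and 284 to 845 without overlap. The array that ended each range at the top was HFD-sham replicate 1. It is the only sham array on slide 1, so without it group and slide cannot be fully told apart.

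List medians within slide 1 were 1.56 for adipocyte, 3.02 for urothelium, 0.21 for PPAR-alpha targets, 0.0443 for beta-oxidation, 0.0683 for immediate-early, 0.0342 for growth factor, -0.11 for cell cycle, -0.16 for gluconeogenesis, -0.17 for respiratory chain, -0.18 for liver, -0.21 for proximal tubule and -0.42 for ribosomal genes. Within slide 2 they were -3.06 for urothelium, -0.56 for immediate-early, -0.29 for growth factor, -0.13 for inflammasome, 0.0372 for renin-angiotensin, 0.18 for proximal tubule, 0.36 for gluconeogenesis, 0.38 for ribosomal and 0.39 for respiratory chain genes. With array weights they were 0.56 for PPAR-alpha targets, 0.39 for macrophage, 0.13 for inflammasome, 0.11 for lymphocyte, 0.0113 for podocyte, -0.14 for principal cell and -0.30 for growth factor genes. Beta-oxidation gave 0.11 with quantile normalization and 0.12 with cyclic loess, and immediate-early genes -0.11 with normexp. With 1 array left out, medians ran from 0.25 to 0.62 for PPAR-alpha targets, 0.0316 to 0.317 for clock, -0.52 to -0.23 for immediate-early, -0.0466 to 0.295 for principal cell, -0.293 to -0.0816 for growth factor, -0.16 to 0.12 for tubular injury, -0.127 to 0.0599 for inflammasome, -0.13 to 0.24 for liver and -0.0828 to 0.013 for renin-angiotensin genes. Of the 122 genes looked at, 23 changed sign within slide 1, 7 within slide 2, 10 with normexp and 4 to 10 with an array left out. The causes were not tested.

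The replicate block let 24 genes pass, where the fit without it let none, and changed the sign of 4 of the 122 genes and of 3 of the 25 list medians. Signal near background limits Aim2, Fos, Foxe1, Kcnk9 and the odorant receptors, and the 3 sham mice limit every comparison.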
